A study of Mus musculus with 6 samples.

Results

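The genes described here encode 3 groups of axon guidance molecules: the Eph receptors with their ephrin ligands, the Slits with their Robo receptors, and the netrins with their receptors of the DCC and UNC5 families. They were taken by symbol, with earlier results of these data known, as every matching row of the count table. The symbols were those of Eph receptors, ephrins, Slit1 to Slit3, Robo1 to Robo4, netrins, netrin-Gs, Unc5 genes, Dcc and Neo1. The rule found 41 of 56734 genes, 31 of which had enough counts to be tested and 10 of which did not. RNA was measured in cultured B16-OVA cells, a mouse melanoma line that carries chicken ovalbumin as a model antigen. The 6 libraries came from 3 samples labelled WT and 3 labelled Ythdf2-KO, both grown in DMEM with fetal bovine serum and antibiotics. The sample titles tag the groups gNC and gY2, terms the labels do not spell out, and the labels do not say whether the knockout cells are 1 clone or a pool, or whether the replicates were separate cultures. The p-values therefore measure the spread between these libraries, which may be technical.

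Eph receptors are receptor tyrosine kinases that bind ephrins on neighbouring cells. Ephrin-A proteins are held in the membrane by a lipid anchor and ephrin-B proteins span it, so that signals can run into both cells at a contact and often push them apart. Slits are secreted proteins that repel cells carrying Robo receptors. Netrin-1 is a secreted relative of laminin that attracts through DCC and neogenin and repels through UNC5 receptors, and UNC5 and DCC are also known as dependence receptors, which promote cell death when no ligand is bound. Melanocytes arise from the neural crest, whose migrating cells are steered by ephrins and Slits, and EphA2 is a well studied receptor in melanoma.

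The libraries held 55660473 to 69497273 counts, and 3 counts corresponded to 0.0433 to 0.0540 CPM, the counts-per-million scale, adjusted by the trimmed mean of M-values (TMM). Ythdf2 itself stood at 124, 124 and 125 CPM in the WT libraries and at 100.1, 101 and 104 CPM in the knockout, a fall of 1.23-fold in which the groups did not overlap (edgeR's quasi-likelihood test with Benjamini-Hochberg adjustment, adjusted p = 4.08e-13). The knockout level was 0.816 of the WT level, and counts per gene show neither the edit nor the protein. Mitochondrial genes took 1.08 to 1.33% of counts in WT and 1.57 to 1.82% in Ythdf2-KO. All 7 melanocyte markers were detected in every library, and their summed level was 237 to 241 CPM in the WT libraries and 1401 to 1431 CPM in the knockout, with 7 of 7 higher. Among the markers of other cells, those of leukocytes summed to 20.4 to 21.1 CPM in the WT libraries and 14.2 to 15.6 CPM in the knockout, nearly all of it Cd68. Ptprc, a gene of all leukocytes, was at 1.07 CPM in Ythdf2-KO replicate 3 and at 0 to 0.0916 CPM in the other 5 libraries, and Cd3e was also highest there, at 0.115 CPM. The 4 endothelial markers summed to 2.53 to 2.66 against 1.71 to 2.17 CPM, and the 4 epithelial markers to 0.0360 to 0.214 against 0.173 to 0.659 CPM. The 5 fibroblast and pericyte markers were abundant in both groups, summing to 1156 to 1192 against 1152 to 1175 CPM, but they moved in opposite directions. Dcn fell 11.7-fold, from 487 to 41.5 CPM, and Lum 2.56-fold, while Col1a1 rose 4.56-fold, Pdgfra 1.51-fold and Pdgfrb 1.49-fold. Of 5 neuronal markers, Rbfox3, Snap25 and Syt1 were below 1 CPM, and the list summed to 29.7 to 31.8 against 36.7 to 39.6 CPM. The Schwann cell genes Mbp and S100b rose, Mbp from 5.44 ± 0.134 to 31.6 ± 1.04 CPM (SD, n = 3) and S100b 4.19-fold to 8.34 ± 0.296 CPM (SD, n = 3). The part of these marker shifts in the results below was not tested, and in bulk RNA a change in the share of cells and a change in RNA per cell cannot be told apart.

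Guidance genes differed between the genotypes in both directions, with rises of 3-fold or more in Epha3, Epha4, Epha7, Unc5c and Robo2 and, below 1 CPM, in Epha8, Slit3 and Ntn4. Falls of more than 2-fold were seen in the ligand gene Ntn1, in Ntng2 and, below 1 CPM, in Slit1. Of the 31 tested, 14 were higher and 8 lower in Ythdf2-KO and 9 were not called, at an adjusted p under 0.05. The called share was 71.0%, against 49.9% of all 17718 genes tested. The share higher was 45.2%, against 24.1% of all genes, and the share lower was 25.8%, the same as the 25.8% of all genes. Among the members, 11 were called and at least 2-fold apart, which is 35.5%, against 9.54% of all genes. Only 7 of the 11 reached 1 CPM in the higher group. The other 4, Epha8, Slit3, Ntn4 and Slit1, passed the filter on low counts only through the genotype in which they were high, since not every library of the other genotype reached it. These 4 are counted in the shares called, higher and lower too, and in the medians and the share without overlap given next. All of these values, with the 35.5%, are therefore descriptions and no support. The members' median log2 fold change was 0.14, and the median of its absolute size was 0.51, against -0.0053 and 0.21 over all genes tested. In 22 members every library of one genotype lay above every library of the other, 71% against 55.9% of all genes tested. The 10 untested members did not pass the filter on low counts, so these shares describe the expressed members and not the whole family.

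**Figure D1:**
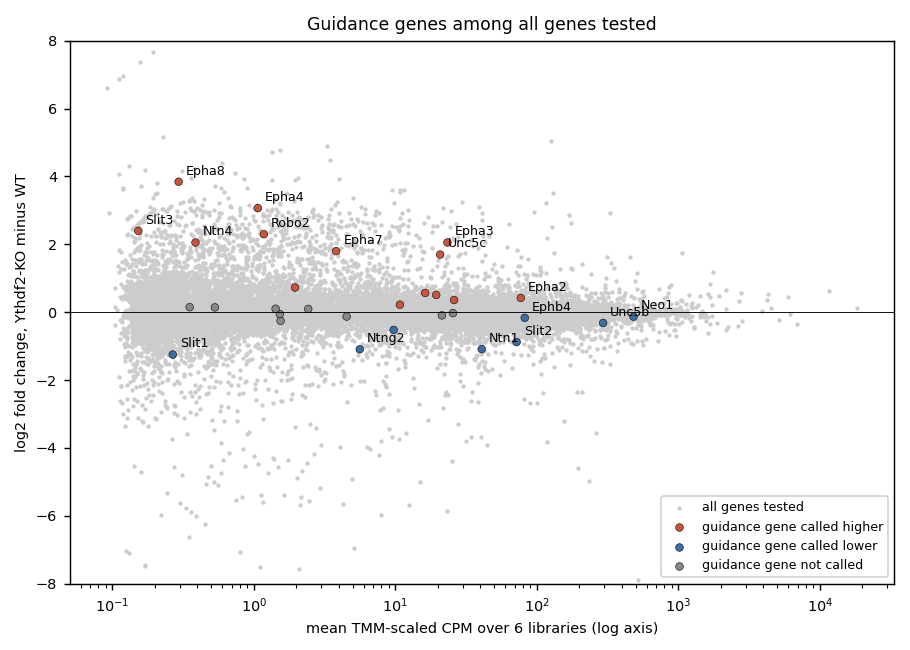
Each grey point is 1 of the 17718 genes tested, placed by its mean TMM-scaled CPM over 6 libraries (log axis) and its log2 fold change, Ythdf2-KO minus WT; 5 genes lie beyond the plotted limit of 8. Coloured points are the 31 guidance genes, of which 14 were called higher and 8 lower. Epha3, Unc5c, Epha7, Epha4, Robo2 and, at low counts, Epha8, Slit3 and Ntn4 lie at 1.70 or higher. The most abundant members, Neo1 and Unc5b, lie close to 0.

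Gene starts in RefSeq are shown for 5 members with clear changes at measurable levels, 3 that rose (Epha3, Epha4 and Unc5c) and 2 that fell (Slit2 and Ntng2), so that the sequence next to the genes that moved can be read. Each sequence is the 250 bases before the annotated start, 5′ to 3′ on the strand of the gene, in build GRCm38.p6, which is older than the GRCm39 build behind the counts. Capitals mark matches, on either strand, to CACGTG and CATGTG (E-box forms bound by the melanocyte factor MITF), TGACTCA (the AP-1 motif), GGGCGG (the GC box) and TATAAA (the TATA box). The positions are chr16:63864176-63864425 on the minus strand for Epha3, chr1:77515089-77515338 on the minus strand for Epha4, chr3:141465314-141465563 on the plus strand for Unc5c, chr5:47982905-47983154 on the plus strand for Slit2 and chr2:29248100-29248349 on the minus strand for Ntng2.
Epha3: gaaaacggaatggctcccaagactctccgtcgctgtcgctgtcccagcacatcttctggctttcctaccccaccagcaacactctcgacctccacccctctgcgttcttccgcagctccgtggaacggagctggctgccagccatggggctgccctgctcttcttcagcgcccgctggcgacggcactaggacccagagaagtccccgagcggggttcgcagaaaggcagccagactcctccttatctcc
Epha4: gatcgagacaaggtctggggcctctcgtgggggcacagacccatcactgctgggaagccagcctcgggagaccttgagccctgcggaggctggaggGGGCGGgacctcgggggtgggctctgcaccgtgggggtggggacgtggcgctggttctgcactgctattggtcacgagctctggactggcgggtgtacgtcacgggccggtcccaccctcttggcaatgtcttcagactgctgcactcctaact
Unc5c: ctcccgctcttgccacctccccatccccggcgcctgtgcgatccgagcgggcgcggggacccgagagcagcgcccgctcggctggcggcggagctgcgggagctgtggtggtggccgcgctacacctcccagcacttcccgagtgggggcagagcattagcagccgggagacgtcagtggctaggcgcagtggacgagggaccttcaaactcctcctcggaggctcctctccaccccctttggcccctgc
Slit2: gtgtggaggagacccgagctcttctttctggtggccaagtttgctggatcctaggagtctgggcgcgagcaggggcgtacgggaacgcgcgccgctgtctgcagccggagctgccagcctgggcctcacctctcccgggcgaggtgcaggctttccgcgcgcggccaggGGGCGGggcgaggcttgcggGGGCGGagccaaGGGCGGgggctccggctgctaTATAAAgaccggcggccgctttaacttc
Ntng2: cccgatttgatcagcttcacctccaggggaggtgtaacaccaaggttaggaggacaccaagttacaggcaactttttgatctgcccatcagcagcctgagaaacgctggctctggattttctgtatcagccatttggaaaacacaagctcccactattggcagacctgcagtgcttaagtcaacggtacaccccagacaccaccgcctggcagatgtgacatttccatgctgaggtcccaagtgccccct

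The Slit2 window held 3 GC boxes and 1 TATAAA, the Epha4 window 1 GC box, and those of Epha3, Unc5c and Ntng2 none of the 5 motifs. The Slit2, Unc5c, Epha3 and Epha4 windows were rich in the dinucleotide CG, with 25, 23, 16 and 14 copies, while Ntng2 had 4; the median over all 32851 windows was 6. RefSeq windows were found for 36 of the 41 members, 41 windows in all, with a median of 17 CG. The GC box was present in 25 of the 36 genes, against 32.7% of all windows. CACGTG was present at 2 genes, Epha8 and a start of Robo2, against 6.02% of all windows, CATGTG at 2 against 12.3%, TATAAA at 2 against 12.4%, and TGACTCA at none against 4.46%. Several genes have more than 1 window, so a share of genes and a share of windows are not the same quantity. A match describes these letters only. No 2 of the matches in the 5 windows overlapped. No entry was matched for Dcc, Efnb3, Ntn1, Slit1 and Unc5d.

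Of 6 EphA receptor genes tested, 5 rose, 4 of them at least 2-fold, and the median log2 fold change was 1.93. Both counts and the median include Epha8, which passed the filter on low counts only through the Ythdf2-KO libraries. They are therefore a description and no support. Of all genes tested, 24.1% were called higher and 9.54% were called in either direction at 2-fold or more; the difference of this small class from other genes was not tested. Epha3, whose product binds chiefly ephrin-A5, stood at 9.25, 9.07 and 8.95 CPM in the WT libraries and at 36.6, 38.4 and 38.1 CPM in the knockout. The groups were far apart and tight. Epha3 had a log2 fold change of 2.05 ± 0.054 (SE, n = 3 per group; edgeR adjusted p = 2.31e-32), a rise of 4.15-fold. Epha7 was at 1.51, 1.48 and 2.12 CPM in the WT libraries and at 5.94, 5.67 and 6.27 CPM in the knockout. It rose 3.48-fold (edgeR adjusted p = 1.13e-15), with 1 WT library above the other 2 but far below the knockout. Epha4, which encodes a receptor able to bind ephrins of both classes, was low in WT, at 0.216, 0.229 and 0.233 CPM, and reached 2.03, 1.83 and 1.88 CPM. Its rise was 8.38-fold, with a log2 fold change of 3.07 ± 0.26 (SE, n = 3 per group; edgeR adjusted p = 8.70e-14).

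Epha8 was the member with the largest fitted change, from 7 counts over the WT libraries to 111 over the Ythdf2-KO libraries. Its levels were 0.0180, 0.0611 and 0.0292 CPM in the WT libraries and 0.381, 0.486 and 0.794 CPM in the knockout. With no overlap, it had a log2 fold change of 3.84 ± 0.56 (SE, n = 3 per group; edgeR adjusted p = 1.16e-07), and the counting error of the WT level is large. Epha8 passed the filter on low counts only through the Ythdf2-KO libraries, so this change is a description and no support. Epha2, the most abundant EphA receptor gene, was at 68.1, 67.2 and 63.0 CPM in the WT libraries and at 87.3, 86.7 and 90.9 CPM in the knockout. It rose 1.34-fold without overlap (edgeR adjusted p = 2.29e-15). Epha1, the founding member of the family, was at 0.336 ± 0.107 CPM in the WT libraries and at 0.369 ± 0.0866 CPM in the knockout (SD, n = 3) and was not called (edgeR adjusted p = 0.795).

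The EphA receptor genes that were too low to test were Epha5, Epha6 and Epha10. Epha6 had 0 counts in WT and 12, 2 and 4 counts in the Ythdf2-KO libraries, at least 5.71-fold higher against a floor of 3 counts over the WT group. This bound rests mainly on 1 library, being 2.89-fold without Ythdf2-KO replicate 1, and it is 2.85-fold if each fragment was counted as 2 reads. With no filter on low counts Epha6 was called (edgeR adjusted p = 0.00911). Epha5 had 5 counts in WT and 15 in Ythdf2-KO, and Epha10, whose product lacks kinase activity, had 31 and 22. Among the chromosomal neighbours in GENCODE, Pax3, a transcription factor gene of the melanocyte lineage that lies next to Epha4, had a log2 fold change of 0.78 ± 0.049 (SE, n = 3 per group; edgeR adjusted p = 3.76e-18). Slc4a3, on the other side of Epha4, also rose, by 0.52. Pros1, beside Epha3, had -0.15 (edgeR adjusted p = 0.0725) and was not called, and the genes beside Epha7, Manea and Map3k7, had -0.23 and -0.015, of which Manea was called.

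Of the 4 EphB receptor genes tested, 1 rose and 2 fell, none by 2-fold. Among all genes tested, 24.1% were called higher and 25.8% lower, and 9.54% were called in either direction at 2-fold or more. The difference of this small class from other genes was not tested. Ephb4, which encodes the receptor of ephrin-B2 in vessels and the most abundant Eph transcript in WT, was at 85.9, 88.5 and 86.9 CPM in the WT libraries and at 74.4, 76.3 and 82.2 CPM in the knockout. It fell 1.12-fold, with every WT library above the knockout (edgeR adjusted p = 2.27e-05). Ephb2, a receptor gene best known from axon pathfinding and the intestinal crypt, was at 11.6, 11.2 and 11.7 CPM and then 8.53, 8.15 and 7.35 CPM. Its fall was 1.44-fold, also without overlap (edgeR adjusted p = 2.19e-07). Ephb6, whose kinase domain is inactive, was at 23.7, 24.0 and 21.0 CPM in the WT libraries and at 30.1, 27.8 and 29.9 CPM in the knockout. It rose 1.28-fold, and the groups did not overlap (edgeR adjusted p = 1.30e-07). Ephb3 was at 1.69 ± 0.0678 CPM in the WT libraries and at 1.41 ± 0.187 CPM in the knockout (SD, n = 3). Every WT library lay above the knockout, but the change was not called (edgeR adjusted p = 0.286). Ephb1 had 4 and 2 counts and was not tested.

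**Figure D2:**
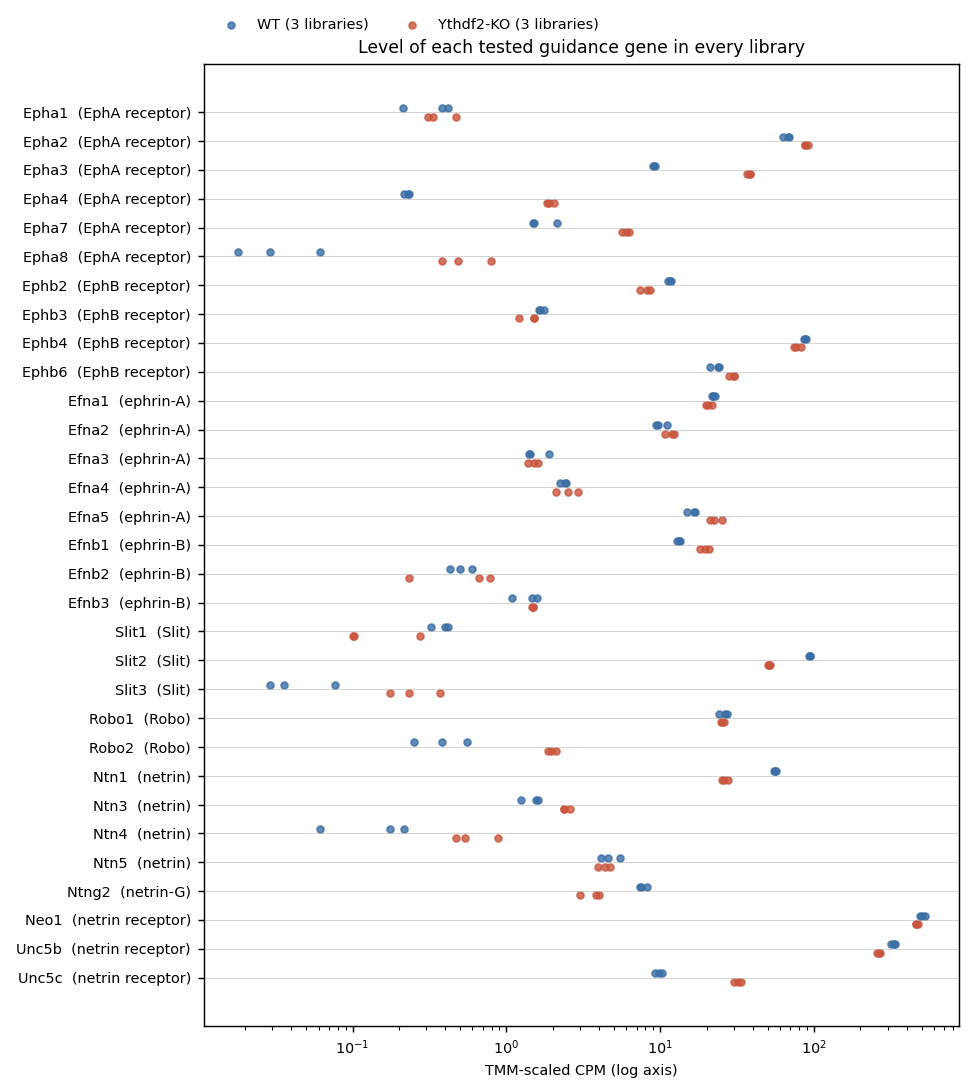
Each point is the TMM-scaled CPM (log axis) of 1 guidance gene in 1 library, with 3 WT libraries in blue and 3 Ythdf2-KO libraries in red, for the 31 genes tested. Epha3, Epha4, Epha7, Epha8, Robo2, Unc5c, Slit3 and Ntn4 show the knockout libraries well to the right of WT, and Slit2, Ntn1, Ntng2 and Slit1 to the left. The 3 libraries of a group lie close together where the level is above 1 CPM.

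The ephrin genes, which encode the ligands of these receptors, were called in 3 of 8 cases, all higher and none by 2-fold. The share called was 37.5%, under the 49.9% of all genes tested. Their median absolute log2 fold change was 0.12, beside 0.21 over all genes. Efna5, whose product repels growing retinal axons, was at 16.9, 16.5 and 14.9 CPM in the WT libraries and at 25.1, 21.0 and 22.4 CPM in the knockout. It rose 1.42-fold without overlap (edgeR adjusted p = 6.33e-09). Efnb1, an X-linked gene for a transmembrane ephrin that takes part in craniofacial development, was at 13.4, 13.2 and 12.9 CPM and then 19.6, 20.7 and 18.1 CPM. It rose 1.48-fold, again with separate groups (edgeR adjusted p = 1.90e-10). Efna2 was at 11.0, 9.61 and 9.38 CPM in the WT libraries and at 11.9, 12.2 and 10.8 CPM in the knockout. The groups overlapped, the rise was 1.17-fold (edgeR adjusted p = 0.0157), and the call was lost in 3 of 6 fits that left out 1 library (WT replicate 3 or Ythdf2-KO replicate 1 or 2), over which the edgeR adjusted p ran from 0.00359 to 0.0885.

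Efna1, the most abundant ephrin transcript per exon length in both genotypes, stood at 22.0, 21.6 and 22.6 CPM in the WT libraries and at 19.9, 21.7 and 20.4 CPM in the knockout. These groups overlapped, and the log2 fold change of -0.095 ± 0.054 (SE, n = 3 per group) was not called (edgeR adjusted p = 0.147). Efna1, Efna3 and Efna4 lie next to each other on chromosome 3, and none of the 3 was called; their edgeR adjusted p was 0.842 for Efna3 and 0.656 for Efna4, at 1.38 to 1.88 and 2.11 to 2.91 CPM over the 6 libraries. Slc50a1 and Adam15, which flank this cluster, were called, with log2 fold changes of 0.36 and -0.17. Efnb2 and Efnb3 encode the other 2 transmembrane ephrins. They were at 0.506 and 1.37 CPM in the WT libraries and at 0.559 and 1.48 CPM in the knockout, and neither was called (edgeR adjusted p = 0.780 and 0.718).

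Slit2, the main Slit gene in these cells, fell in Ythdf2-KO. It was at 94.1, 93.8 and 92.4 CPM in the WT libraries and at 51.4, 50.5 and 50.2 CPM in the knockout. It had a log2 fold change of -0.88 ± 0.031 (SE, n = 3 per group; edgeR adjusted p = 1.38e-27), a fall of 1.84-fold, while its neighbours Lcorl and 5730480H06Rik had 0.042 and 0.011 and were not called. Slit1 and Slit3 were below 0.5 CPM in every library. Slit3 was at 0.0360, 0.0764 and 0.0292 CPM in the WT libraries and at 0.176, 0.372 and 0.231 CPM in the knockout, 9 and 51 counts in all. It rose 5.27-fold without overlap (edgeR adjusted p = 0.00141). Slit1 was at 0.414, 0.397 and 0.321 CPM in the WT libraries and at 0.102, 0.275 and 0.101 CPM in the knockout, 71 and 31 counts in all. It fell 2.38-fold with no overlap (edgeR adjusted p = 0.0250), and the call was lost in 4 of 6 fits that left out 1 library (WT replicate 1 or 2 or Ythdf2-KO replicate 1 or 3), with edgeR adjusted p of 0.00622 to 0.119. Over these 6 fits the fall ran from 2.01- to 3.65-fold, the latter without Ythdf2-KO replicate 2. Slit3 passed the filter on low counts only through the Ythdf2-KO libraries, and Slit1 only through the WT libraries. Both changes are therefore descriptions and no support.

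Of the Slit receptor genes, Robo1 carried nearly all the signal and did not pass the test. It was at 24.0, 26.2 and 27.2 CPM in the WT libraries and at 24.7, 26.0 and 25.3 CPM in the knockout, with overlapping groups and a log2 fold change of -0.029 ± 0.051 (SE, n = 3 per group; edgeR adjusted p = 0.679). With an offset for transcript length and GC content Robo1 was called lower, at -0.23 (edgeR adjusted p = 8.70e-05). Robo2, its neighbour on chromosome 16, was at 0.252, 0.550 and 0.379 CPM in the WT libraries and at 1.96, 2.09 and 1.85 CPM in the knockout. It rose 4.92-fold with no overlap (edgeR adjusted p = 7.80e-11), from 76 to 391 counts. Robo3, a receptor of commissural axons, had 10 and 12 counts, and Robo4, known from endothelium, had 8 and 2; neither was tested.

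Ntn1, the gene of the best known attractant of the group, fell by more than 2-fold. It was at 56.0, 56.6 and 54.5 CPM in the WT libraries and at 25.1, 26.0 and 27.5 CPM in the knockout. The groups were widely separate, with a log2 fold change of -1.09 ± 0.041 (SE, n = 3 per group; edgeR adjusted p = 1.91e-26), a fall of 2.13-fold. Its chromosomal neighbour Stx8 had -0.086 and was not called (edgeR adjusted p = 0.132), and the other, Pik3r5, fell by 2.66 on the log2 scale (edgeR adjusted p = 5.94e-39). The minor netrin genes went the other way or did not pass. Ntn3 rose 1.66-fold, from 1.47 ± 0.198 to 2.44 ± 0.115 CPM (SD, n = 3; edgeR adjusted p = 3.96e-04). Ntn4, whose product binds laminin in basement membranes, was at 0.216, 0.0611 and 0.175 CPM in the WT libraries and at 0.468, 0.874 and 0.534 CPM in the knockout. It rose 4.15-fold without overlap (edgeR adjusted p = 7.21e-05). Ntn4 had 28 and 123 counts in all and passed the filter on low counts only through the Ythdf2-KO libraries. This rise is therefore a description and no support. Ntn5 was at 4.73 ± 0.684 and 4.34 ± 0.387 CPM (SD, n = 3) and was not called (edgeR adjusted p = 0.393); Sec1 on the opposite strand covers 23.4% of its exons.

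Ntng2 encodes netrin-G2, a membrane-anchored relative of netrins that binds NGL proteins at synapses and not DCC. It was at 8.21, 7.33 and 7.44 CPM in the WT libraries and at 3.97, 3.81 and 2.99 CPM in the knockout. The fall was 2.14-fold with no overlap (edgeR adjusted p = 7.02e-12). The unnamed gene 6530402F18Rik shares 14% of the Ntng2 exon bases on the same strand; it was more abundant, at a mean of 32.8 CPM, and had a log2 fold change of -0.88, so counts at the shared bases could belong to either. Ntng1 had 2 counts in each genotype.

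Netrin receptor genes included the 2 most abundant members, both slightly lower, and 1 that rose. Neo1, which encodes neogenin, a receptor for netrins and for repulsive guidance molecules, was at 502, 526 and 490.4 CPM in the WT libraries and at 458, 457 and 471 CPM in the knockout. The fall was 1.10-fold, and the groups did not overlap (edgeR adjusted p = 3.10e-06). Unc5b, known as a netrin receptor gene of vessels and a p53 target, was at 331, 335 and 316 CPM in the WT libraries and at 257, 262 and 269 CPM in the knockout. It fell 1.25-fold without overlap (edgeR adjusted p = 1.07e-15). Unc5c was at 9.22, 10.3 and 9.86 CPM in the WT libraries and at 33.3, 31.9 and 30.3 CPM in the knockout. It rose 3.24-fold, with a log2 fold change of 1.70 ± 0.059 (SE, n = 3 per group; edgeR adjusted p = 7.56e-28), and the groups were far apart. Dcc had 15 counts in WT and 6 in Ythdf2-KO, Unc5a 6 and 4, and Unc5d 23 and 6, too few for a test. Neo1 and Unc5b together supplied nearly all of the netrin receptor signal per exon length in both genotypes.

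**Figure D3:**
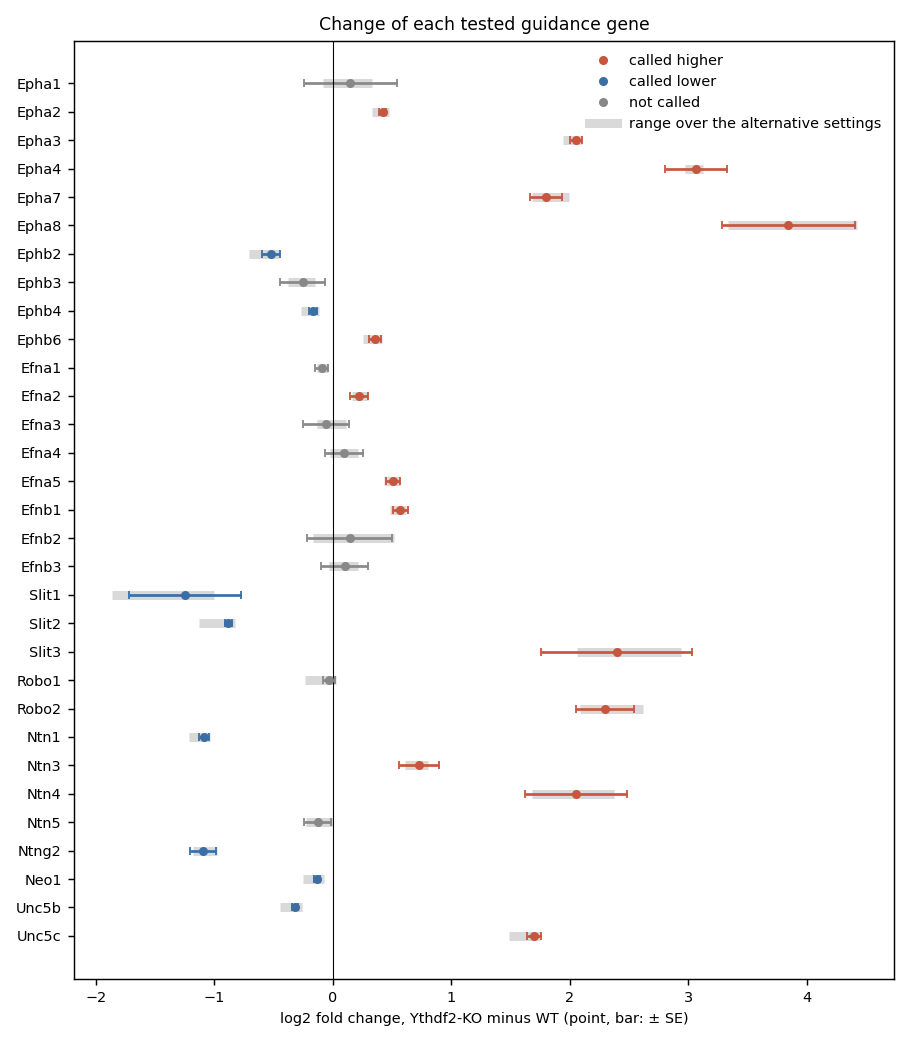
Points give the log2 fold change, Ythdf2-KO minus WT, of the 31 tested guidance genes with bars of ± SE (n = 3 per group); grey bands give the range over the alternative settings. Red points were called higher, blue lower and grey not called. The bands of Epha3, Epha4, Epha7, Epha8, Robo2, Unc5c, Slit3 and Ntn4 stay above 1. Those of Slit2, Ntn1, Ntng2 and Slit1 stay below -0.8. The bands of Epha1, Efna3, Efna4, Efnb2, Efnb3, Robo1 and Ntn5 span 0.

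Levels per exon length allow members of a family to be set beside each other. They are CPM per kilobase of all annotated exons of a gene, which understates a gene with many little-used exons, such as Slit2 with 25433 exon bases. In WT the Eph receptor genes summed to 41.5 CPM per kilobase, between 40.3 and 42.3, of which Ephb4 took 45.2% ± 1.15, Epha2 34.0% ± 0.669, Ephb6 14.6% ± 0.715 and Epha3 2.52% ± 0.0444. In Ythdf2-KO the sum was 49.7 ± 1.51 CPM per kilobase (SD, n = 3). There Epha2 was first with 38.1% ± 0.184, Ephb4 took 33.7% ± 0.855 and Epha3 8.74% ± 0.301, so the order of the leading pair was exchanged in every library. Epha4, Epha7 and Epha8, despite their rises, each took a mean of 1.21% or less of the knockout sum. The ephrin genes summed to 27.1 ± 0.518 CPM per kilobase in WT and 30.8 ± 1.01 in Ythdf2-KO (SD, n = 3). Efna1 led with 44.4% and 36.7%, and the share of Efna5 was 14.7% and 18.4%.

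On the same per-length scale the netrin genes summed to 11.3 ± 0.418 CPM per kilobase in WT and 6.78 ± 0.222 in Ythdf2-KO (SD, n = 3), with the share of Ntn1 at 78.3% and 61.6%. The receptors of this group, Neo1, Dcc and the Unc5 genes, summed to 111 ± 3.60 and 96.6 ± 1.73 CPM per kilobase (SD, n = 3), so the receptor sum exceeded the netrin sum in every library. Unc5c made up 0.462% of the receptor sum in WT and 1.72% in Ythdf2-KO. The Slit genes summed to 3.75 ± 0.0448 and 2.06 ± 0.0326 CPM per kilobase, at least 94.8% of it Slit2 in each library. The Robo genes summed to 1.60 ± 0.0928 and 1.66 ± 0.0362 CPM per kilobase (SD, n = 3), of which Robo2 took 1.44% in WT and 6.97% in Ythdf2-KO.

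**Figure D4:**
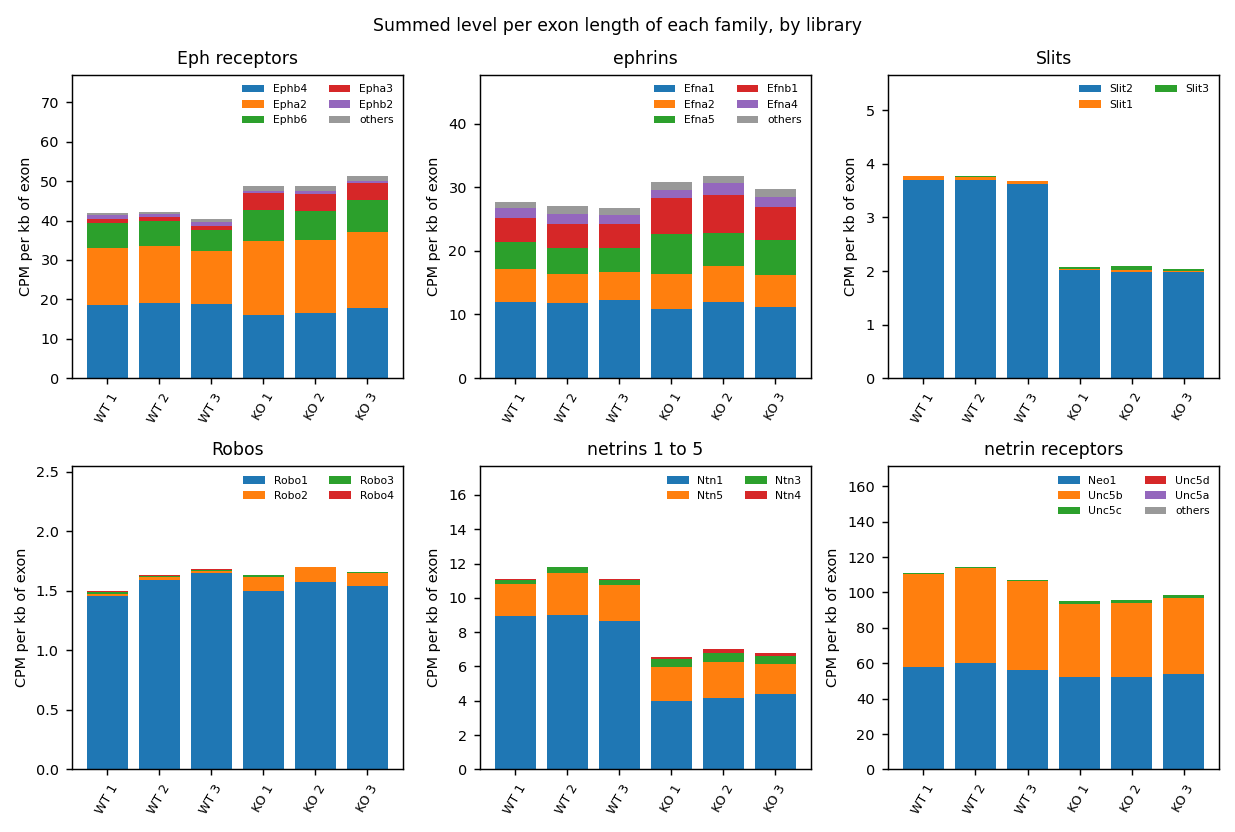
Bars give the summed level of each family in CPM per kilobase of exon, 1 bar for each of the 3 WT and 3 Ythdf2-KO (KO) libraries, split by gene; from the sixth gene on, members are pooled as others. The Slit and netrin bars are lower in all 3 knockout libraries, the Eph receptor bars are higher with a larger part from Epha2 and Epha3, and the Robo bars overlap between the genotypes.

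Genes known to act with these molecules were counted in 3 lists. Of 27 tested partners of Eph and ephrin signalling, 11 rose and 8 fell, and the median change (log2) was 0.058; without WT replicate 3, the number that rose was 7. Chn2, a Rac GTPase-activating protein gene of the chimaerin family, rose 4.69-fold, from 0.913 ± 0.235 to 4.25 ± 0.333 CPM (SD, n = 3). Ngef, which encodes ephexin-1, an exchange factor that binds EphA4, rose 1.96-fold from 5.85 ± 0.291 CPM, and Kalrn, another exchange factor gene, rose 1.70-fold from 13.5 ± 0.200 CPM. The falls were led by Chn1, which encodes the alpha-chimaerin that acts downstream of EphA4, with 1.62-fold, and Vav3, an exchange factor gene of the Vav family, with 1.49-fold. Adam10, the gene of a protease that cuts ephrins from the cell surface, fell 1.27-fold from 293 ± 3.63 to 231 ± 4.17 CPM (SD, n = 3). The 2 chimaerin genes thus moved in opposite directions.

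Of 16 tested partners of Slit and Robo, 4 rose and 8 fell, and the median change (log2) was -0.096. Srgap1, a Slit-Robo GTPase-activating protein gene, rose 5.85-fold, from 0.509 ± 0.141 to 3.01 ± 0.678 CPM (SD, n = 3), and Sdc2 and Arhgap39 rose 1.23- and 1.17-fold. Sdc4 and Sdc3, which encode heparan sulfate proteoglycans of the syndecan family, the class of molecules that helps Slits bind Robo, fell 1.73- and 1.69-fold, from 555 and 326 CPM. Pak1, a kinase gene downstream of Rac, fell 1.59-fold. Of 15 tested partners of netrins and repulsive guidance molecules, 6 rose and 4 fell, and the median change (log2) was -0.060. Without WT replicate 2, the number that fell was 2. Ablim1, which encodes an actin-binding protein whose worm relative acts in netrin-guided migration, rose 3.43-fold, from 7.26 ± 0.701 to 24.9 ± 0.653 CPM (SD, n = 3). Mcam, a melanoma adhesion molecule reported to bind netrin-1, rose 1.75-fold, and Dock1, a Rac activator gene, 1.26-fold. Appl1, the gene of an adaptor that binds DCC, and Rgmb, a neogenin ligand gene, fell 1.17- and 1.14-fold. Ptk2, which encodes focal adhesion kinase, fell 1.05-fold (edgeR adjusted p = 0.0248), a call lost at a threshold of 0.01. The called shares of the 3 lists were 70.4%, 75.0% and 66.7%, beside the 49.9% of all genes tested. Among the 10507 genes with a mean of at least 5 CPM, 3410 were called higher and 3524 lower, a larger share than 49.9%. The lists were not compared with genes of like level, so their shares are descriptions only.

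The members were also described by features of their transcripts that the rule did not use. The longest coding transcript of a tested member held a median of 1.83 copies of GGACT, a core form of the m6A motif, per kilobase, against 1.01 over the 16758 tested genes with an annotated transcript. The median was 1.72 in members called higher, 2.01 in members called lower and 1.67 in those not called. Over all genes it was 1.04 both in those called higher and in those called lower. The median GC content was 53.9% in the members called higher and 57.7% in those called lower, against 49.7% over all genes tested, and the median exon length was 5109 bases in tested members against 3650. Motif copies show neither methylation nor binding by YTHDF2.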

How the data were processed

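Polyadenylated RNA of 6 B16-OVA libraries was read as paired ends on an Illumina NovaSeq instrument, per the labels' protocols. The authors deposited raw whole-number counts for each gene symbol. Per the submitters' processing notes, the tools were fastp 0.23.2, HISAT2 2.2.1 and featureCounts 2.0.6 and the build GRCm39; how strand, pairs and multiple alignments were handled is not given in the sources used, so reads of overlapping and antisense genes cannot be told apart. Of the counts from 1 to 10, 66.9% were even, as when reads of a pair are counted singly, so low counts hold fewer independent fragments than their size. Floors cover counting error only, while the SE and SD also take in the spread between these libraries.

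The counts went into edgeR 4.0.16 under R 4.3.3: filterByExpr (17718 genes kept), TMM scaling, a robust quasi-likelihood fit of genotype across all genes and Benjamini-Hochberg adjustment over all of them. The SE is the log2 fold change divided by the square root of its F. Levels are TMM-scaled CPM, with the mean and SD over libraries. The pipeline was tested on simulated data, 50 changed genes a fold among 17718. It recovered 66, 82, 100 and 100% of genes changed 1.2-, 1.5-, 2- and 4-fold with 13 false calls. Only genes with a mean above 1 CPM were changed, so these shares do not cover members below it, such as Epha8, Slit1, Slit3 and Ntn4. Far fewer genes were changed than were called in the data.

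The members and lists were chosen with earlier results of these data known. Members got values in every library if called at 2-fold or at a mean of at least 5 CPM; each partner list gave its 3 largest rises and falls at a mean of at least 1 CPM; other members, neighbours and overlapping genes were named after their values were seen. Alternatives were RLE and upper-quartile scaling, TMM without the 20 most abundant and mitochondrial genes, 2 other filters, the replicate block, DESeq2 1.42.0, limma-voom in limma 3.58.1, a threshold of 0.01, a length and GC offset, leaving out libraries, and, added after seeing the data, halved counts. Exon lengths, motifs, neighbours and overlaps came from GENCODE M21 (GRCm38), joined by symbol, and windows before gene starts from RefSeq. Replicates of a genotype differed by a chi-square of 3.98 to 13.0 per degree of freedom, so none was a copy. Some marker results are not reported here. Figures used Python 3.11.15 and matplotlib 3.10.9.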

Additional observations from a re-analysis of the deposited data

How the results depend on the processing

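Of the 22 called members, 20 kept direction and call in all of the 18 alternatives in which they were tested; Efna2 and Slit1 lost the call in some, including a threshold of 0.01 (edgeR adjusted p = 0.0157 and 0.0250), and Efna2 with the length and GC offset (edgeR adjusted p = 0.0812). The 20 include Epha8, Slit3 and Ntn4, which passed the filter on low counts only through the Ythdf2-KO libraries. For these genes the tally is a description and no support. With the filter at a mean of 5 CPM, 7 members rose, because 16 were left to test. With halved counts Slit3 did not pass the filter on low counts, and 13 members rose. All 14 reversals of sign were of members that were not called: leaving out 1 library gave log2 fold changes of -0.086 to 0.32 for Epha1, -0.13 to 0.11 for Efna3, -0.022 to 0.21 for Efna4, -0.16 to 0.51 for Efnb2, -0.036 to 0.21 for Efnb3, -0.072 to 0.012 for Robo1 and -0.21 to 9.1e-04 for Ntn5. Without replicate 3 of both genotypes Efnb2 was at -0.022 and Robo1 at 0.011, limma-voom gave Efnb2 -0.023, and upper-quartile scaling Robo1 0.025. The cause was not tested.

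Among partners of Eph and ephrins, the count that rose was 6 with the length and GC offset, 7 without replicate 3 of both genotypes and 7 to 11 when 1 library was left out, and the count that fell was 5 with upper-quartile scaling. Of Slit and Robo partners, 2 rose and 13 fell with the length and GC offset, and 5 fell under the 5 CPM filter. Of netrin partners, 3 rose with that offset, and 2 fell with RLE or upper-quartile scaling, TMM without the most abundant genes, the 5 CPM filter, DESeq2 or a threshold of 0.01, and 2 to 4 when 1 library was left out. Of all calls, 48.3% were higher with TMM, 59.2% with upper-quartile scaling and 35.6% with the offset. Same-numbered libraries did not deviate together (correlations of 0.011, -0.037 and -0.052). Paired libraries with little shared deviation would give such values too, so pairing by number cannot be decided from them. With the replicate block 14 members rose and 8 fell, the same counts as without it. Low counts limit Epha8, Slit1, Slit3 and Ntn4, all under 1 CPM.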
